A study of Saccharomyces cerevisiae with 10 samples.

Results

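The yeast cell wall genes described here are 39 genes of Saccharomyces cerevisiae that encode structural proteins of the wall, the enzymes that build and join its polysaccharides, and proteins of the cell wall integrity pathway. They were chosen by gene name, with earlier results of these data known, and all are reported whatever their values. They are 39 of 5654 genes tested. By role they comprise 11 structural mannoproteins, 5 genes of glucan synthesis, 10 of glucan remodelling, 3 of glucan-chitin linking, 4 of chitin synthesis and 6 of the integrity pathway and its markers. Each was read by 1 probe set, and whether that probe set also reads a related gene was not checked. On every array 38 of them lay above background, which was taken as the 95th percentile of the probe sets for another yeast, Schizosaccharomyces pombe (4.67 to 4.9 on the log2 scale). The exception was YPS3, which was above background on 8 of 10 arrays and not on the 2 start arrays.

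Total RNA of strain TMB3500 was measured on single-colour Affymetrix arrays, which read the 3′ parts of transcripts after amplification with biotin. All cultures were aerobic batches on glucose that then received a continuous feed, either spruce hydrolysate, the sugar liquor from wood used without detoxification, or a solution of the sugars alone (glucose, mannose and xylose, at concentrations like those of the hydrolysate). Within 16 h, during which the feed rate was raised from 0.04 to 0.1 L/h, 0.7 L of culture received 1 L. Cells were taken when feeding began (0 h) and at 9 h and 18 h of fed-batch with either hydrolysate or sugar. Each group had 2 biological replicates, with 1 array each, which makes 5 groups and 10 arrays. The 18 h samples come after the 16 h given above, and whether feed still ran then was not settled here. The labels give no genotype beyond the strain name and do not describe separate cultures for the replicates, so the p-values measure the spread between these samples, which may be technical. RNA came from whole cultures, in which a change in the share of cells that express a gene and a change in RNA per cell cannot be told apart.

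The yeast wall is a mesh of beta-glucan and a little chitin, covered by mannoproteins that are anchored to the glucan. Glucan and chitin are made by synthases in the plasma membrane and then cut, elongated and joined outside it, so that the wall can grow with the cell and close at the bud neck. Wall damage is read by surface sensors and passed through protein kinase C to the MAP kinase Slt2, which acts on the transcription factor Rlm1 and, through it, on many wall genes. Phenolic compounds, furans and weak acids in wood hydrolysates are known to stress yeast membranes and walls.

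All levels are on the log2 scale as deposited, after normalization by RMA (robust multi-array averaging), so that 1 unit is a 2-fold difference. Replicates correlated across all genes between 0.9706 (hydrolysate, 9 h) and 0.9957 (sugar, 18 h). Among the 39 genes, 3 differed at least 2-fold between the hydrolysate replicates at 9 h, and none did between the sugar replicates at 9 h. The 3′ minus 5′ signal of 8 control genes, a sign of RNA quality, had a mean at 9 h of 0.960 ± 0.0489 (log2, SD, n = 2) on hydrolysate arrays and of 0.669 ± 0.00302 on sugar arrays. At 18 h these were 1.23 ± 0.0523 and 0.599 ± 0.00775. Across all genes at 18 h, the hydrolysate minus sugar difference had a median of 0.47 for the genes of at most 753 bp and of -0.35 for those of at least 1893 bp, so it moved with gene length. The part of RNA quality in the results below was not tested. Values without the length trend, a setting added once the data had been seen, are given beside some of the counts they change. Further counts are in the closing section, and a count without such a value may change too.

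**Figure D1:**
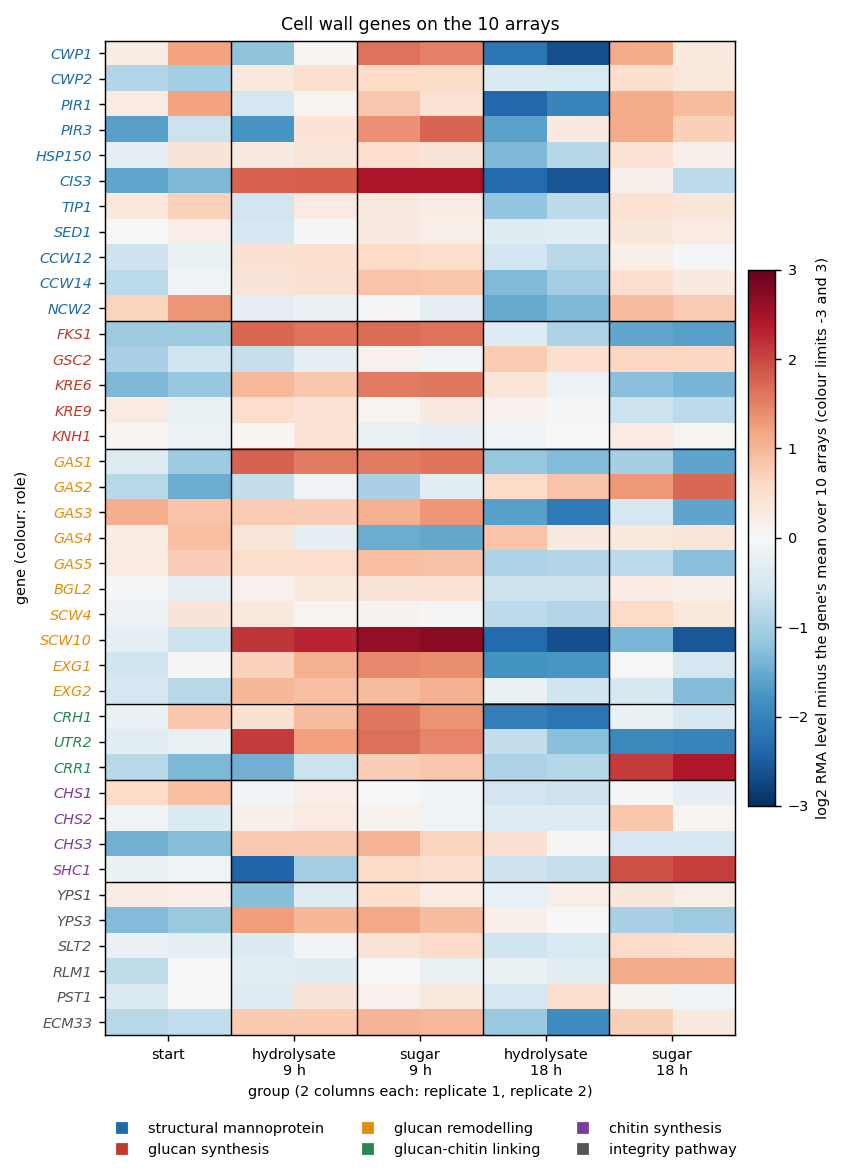
Log2 level of each of the 39 genes on each of the 10 arrays, shown by colour as the difference from that gene's mean over the arrays; rows are genes in order of role and columns are the replicates of the 5 groups. SCW10 spanned 5.33 log2 units over the arrays and KNH1 0.71, and the mannoproteins at the top are mostly below their means in the hydrolysate arrays at 18 h.

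The feed comparison asked how transcript levels in cells fed hydrolysate differed from those in cells given the sugars alone. At 18 h, 29 of the 39 genes passed the test (limma, Benjamini-Hochberg adjusted p under 0.05), of which 23 were lower and 6 higher in hydrolysate. Of all 5654 genes tested, 61.9% passed at that time, 30.8% lower and 31.2% higher. The 29 genes are 74.4% of the 39. With the length trend removed, 7 were higher and 19 lower. Their median log2 difference was -0.82, against 0.01 over all genes. At 9 h, 6 of the 39 passed, 5 lower and 1 higher, where 9.67% of all genes did (3.91% lower and 5.77% higher), and the median was -0.21 against 0.03. By role at 18 h, 10 of 11 mannoproteins were lower and none higher, 3 of 5 glucan synthesis genes were higher and none lower, and 3 of 4 chitin genes were lower and 1 higher. For each gene that passed in either feed comparison, both arrays of one feed lay beyond both arrays of the other. Genes that did not pass could show this too, as CWP2 and HSP150 did at 9 h. The share over all genes was not counted, so this adds nothing to the test.

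**Figure D2:**
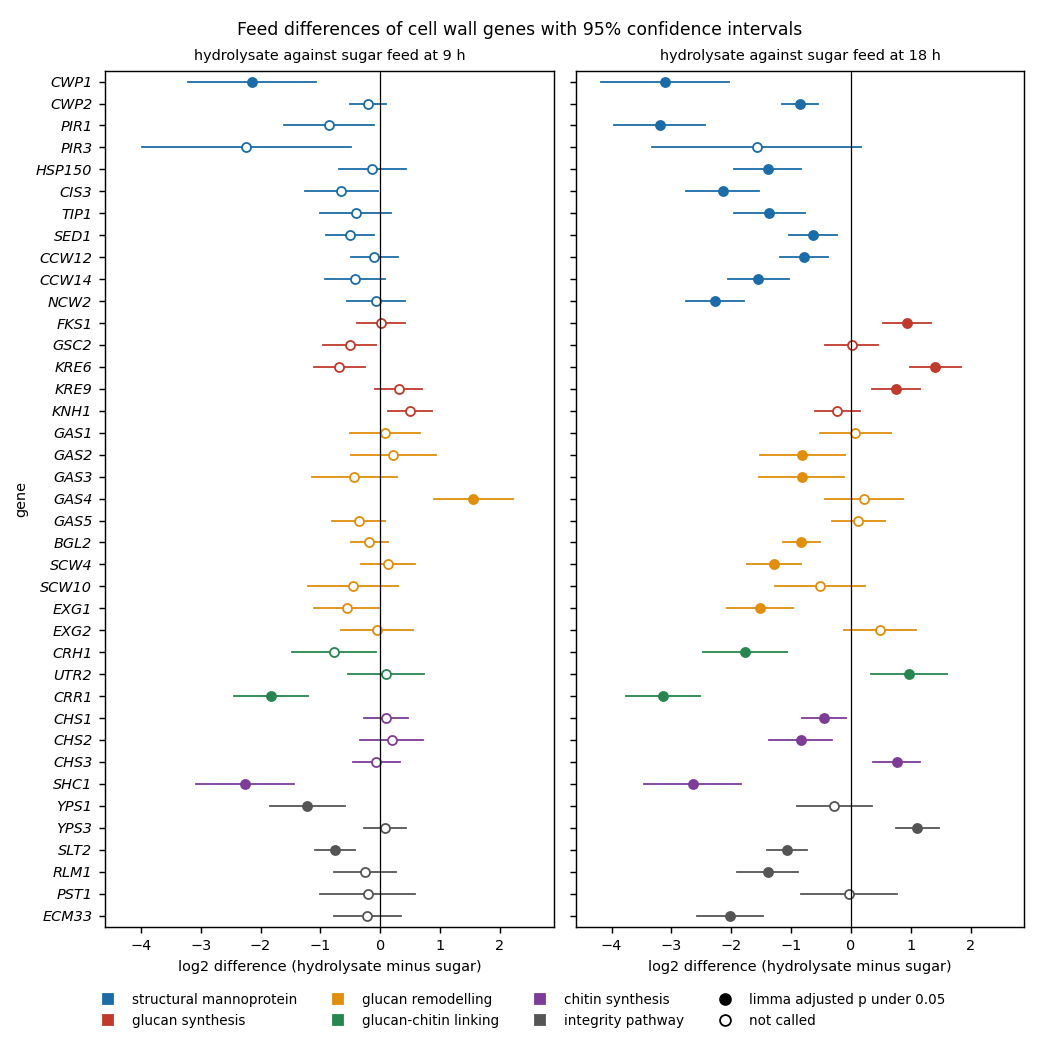
Log2 difference between feeds (hydrolysate minus sugar) of each gene at 9 h (left) and 18 h (right), with its 95% confidence interval from the limma fit; filled points passed an adjusted p of 0.05 and colours mark roles. At 18 h 23 filled points lie below 0 and 6 above it, while at 9 h 6 points are filled.

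The mannoproteins were the role with the lowest feed difference at 18 h among those with more than 3 genes, with a median of -1.55. CWP1 encodes a mannoprotein held in the wall by a lipid-derived (GPI) anchor remnant. It measured 9.26 and 8.78 in hydrolysate at 18 h and 12.54 and 11.71 in sugar. At 9 h it read 10.22 and 11.48 in hydrolysate and 13.05 and 12.94 in sugar, and at the start 11.64 and 12.64. It was thus lowest on the hydrolysate arrays at both times. The feed difference was -2.15 at 9 h (SE 0.467, limma adjusted p = 0.0317) and -3.10 at 18 h (SE 0.467, limma adjusted p = 0.000649), or 8.6-fold lower. Its relative CWP2, a small wall protein encoded next to it, measured 13.40 and 13.37 in late hydrolysate and 14.33 and 14.15 in late sugar. The earlier arrays gave 14.12 and 14.30 in hydrolysate, 14.43 and 14.38 in sugar, and 12.95 and 12.81 at the start. The feed difference of CWP2 at 18 h was -0.85 (SE 0.132, limma adjusted p = 0.000737), and at 9 h it did not pass (-0.20).

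PIR1, HSP150, CIS3 and PIR3 encode proteins with internal repeats that are bound to glucan without a GPI anchor. PIR1 (YKL164C, chromosome XI, 141794 to 142819) measured 9.67 and 10.05 in hydrolysate at 18 h, against 13.14 and 12.97 in sugar. At 9 h it was 11.50 and 12.10 in hydrolysate and 12.83 and 12.47 in sugar, and at the start 12.26 and 13.24. The sugar arrays thus stayed within the range of the start, while the hydrolysate arrays lay below it at both times. The difference at 18 h was -3.20 (SE 0.330, limma adjusted p = 0.00015), the largest of the 39 genes, or 9.18-fold lower. It exceeded the difference at 9 h, which was -0.85 and did not pass, by -2.35 (limma adjusted p = 0.0101).

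CIS3 (YJL158C, chromosome X, 122265 to 122948) measured 8.79 and 8.56 in hydrolysate and 11.29 and 10.35 in sugar at 18 h. Its levels at 9 h were much higher under both feeds, at 12.91 and 12.93 in hydrolysate and 13.56 and 13.57 in sugar, where the start gave 9.56 and 9.78. The feed difference at 18 h was -2.14 (SE 0.266, limma adjusted p = 0.000287). HSP150, a secreted member of the same family, measured 11.69 and 12.19 in late hydrolysate and 13.47 and 13.20 in late sugar. At 9 h it read 13.30 and 13.40 in hydrolysate and 13.54 and 13.42 in sugar, and at the start 12.75 and 13.43, so the late hydrolysate arrays stood apart from the remaining 8. The difference was -1.39 (SE 0.245, limma adjusted p = 0.00139).

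PIR3 was the mannoprotein that did not pass at either time. Its replicates were far apart in hydrolysate, at 8.50 and 10.69 at 9 h and 8.66 and 10.57 at 18 h, while sugar gave 11.63 and 12.02, then 11.39 and 10.98. Both hydrolysate arrays lay below both sugar arrays at each time, and the differences of -2.24 and -1.57 had a standard error of 0.765 (limma adjusted p = 0.0866 and 0.104). With arrays scaled by their spike-ins, PIR3 passed at both times (-2.29 and -1.78, limma adjusted p = 0.0335 and 0.0165).

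NCW2 and CCW14 encode further GPI-anchored wall proteins. NCW2 (YLR194C, chromosome XII, 540809 to 541573) measured 8.10 and 8.27 in hydrolysate and 10.54 and 10.37 in sugar at 18 h. At 9 h the feeds overlapped, at 9.32 and 9.43 in hydrolysate and 9.56 and 9.34 in sugar, both below the 10.29 and 10.94 of the start. Its feed difference was -2.27 at 18 h (SE 0.210, limma adjusted p = 0.000112) and -0.07 at 9 h. CCW14 measured 11.13 and 11.43 in hydrolysate and 12.94 and 12.72 in sugar at 18 h, after 12.83 and 12.91 in hydrolysate and 13.30 and 13.29 in sugar at 9 h, from 11.64 and 12.34 at the start. Late hydrolysate was again the lowest group, with a difference of -1.55 (SE 0.222, limma adjusted p = 0.000515). The remaining mannoprotein genes, TIP1, CCW12 and SED1, were lower in hydrolysate at 18 h by smaller amounts, -1.36, -0.78 and -0.63. SED1 lost its call without hydrolysate 18 h replicate 1 or sugar 18 h replicate 1 (limma adjusted p up to 0.0718).

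The mannoprotein genes are short, 279 to 1242 bp with a median of 720 bp. Of the 11, 6 are no longer than 753 bp, and their late feed differences ran from -3.10 to -0.78, where the median of all genes of that length was 0.47. With the length trend removed their median at 18 h was -1.75 and 10 of 11 remained lower.

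**Figure D3:**
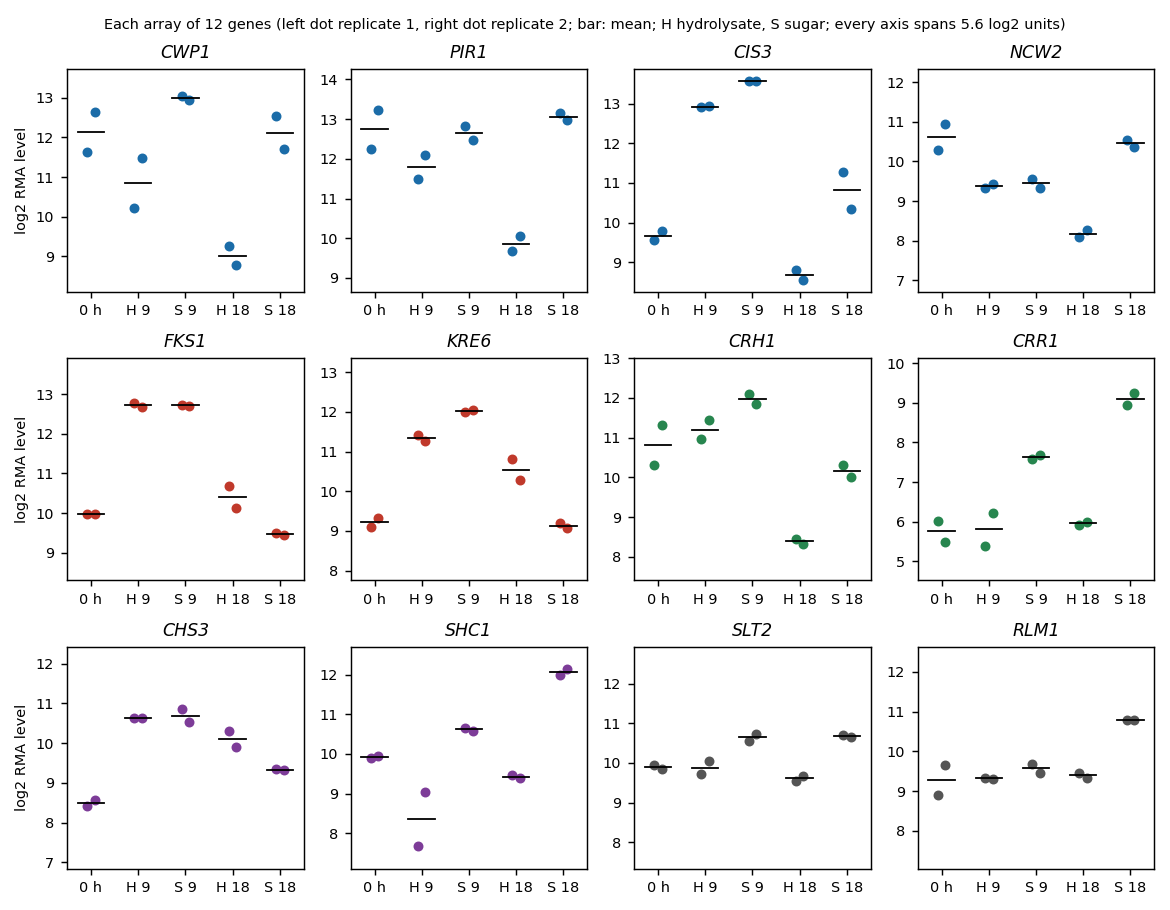
Log2 level of 12 genes on every array (dots, replicate 1 left and replicate 2 right) with the mean of each group (bar), for the start, hydrolysate (H) and sugar (S) at 9 h and 18 h; every vertical axis spans the same number of log2 units. PIR1 and CWP1 are lowest in hydrolysate at 18 h, KRE6 and FKS1 are lowest at the start and in sugar at 18 h, and CRR1 is highest in sugar at 18 h.

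The glucan synthesis genes went the other way at 18 h, with a median difference of 0.75. FKS1 encodes the main catalytic subunit of beta-glucan synthase. It measured 10.69 and 10.14 in hydrolysate and 9.50 and 9.44 in sugar at 18 h. At 9 h the feeds overlapped near the top of its range, at 12.78 and 12.68 in hydrolysate and 12.73 and 12.70 in sugar, and the start gave 9.97 and 9.99. The feed difference was 0.94 at 18 h (SE 0.176, limma adjusted p = 0.00191) and 0.02 at 9 h. KRE6, a Golgi and membrane protein needed for the branching beta-glucan that holds GPI proteins, measured 10.81 and 10.28 in late hydrolysate and 9.20 and 9.07 in late sugar. Its 9 h arrays ran in the opposite order, 11.42 and 11.27 in hydrolysate and 12.01 and 12.05 in sugar, with 9.11 and 9.33 at the start. The difference of KRE6 was 1.41 at 18 h (SE 0.185, limma adjusted p = 0.000348). At 9 h it was -0.68 and did not pass (limma adjusted p = 0.0531).

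KRE9, which acts in the same branch of glucan synthesis, was higher in late hydrolysate by 0.75 (limma adjusted p = 0.00564), a call lost with spike-in scaling (0.54, limma adjusted p = 0.127). GSC2, the alternative synthase subunit used under stress and low glucose, did not differ beyond its error at 18 h (0.01, 95% confidence interval -0.43 to 0.45). With the length trend removed it was higher by 0.62 (limma adjusted p = 0.0156). KNH1, a relative of KRE9, varied least of all 39 genes. It measured 11.46 and 11.61 in late hydrolysate, 11.84 and 11.68 in late sugar, 11.65 and 12.003 in hydrolysate at 9 h, 11.37 and 11.29 in sugar at 9 h, and 11.67 and 11.41 at the start. Neither feed difference of KNH1 passed, at 0.49 and then -0.23.

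Among the 10 glucan remodelling genes, 5 were lower and none higher in hydrolysate at 18 h, where 30.8% of all genes were lower. With the length trend removed 3 were lower, and GAS2 and GAS3 no longer passed. SCW4 and BGL2 encode glucanase-like proteins abundant in the wall. SCW4 measured 12.56 and 12.49 in late hydrolysate and 13.95 and 13.66 in late sugar. The start gave 13.19 and 13.74, and at 9 h the feeds overlapped, with 13.68 and 13.43 in hydrolysate and 13.47 and 13.39 in sugar. The difference at 18 h was -1.28 (SE 0.197, limma adjusted p = 0.0007). BGL2 measured 13.01 and 13.00 in late hydrolysate, 13.88 and 13.79 in late sugar, 13.77 and 13.94 in early hydrolysate, 14.02 and 14.06 in early sugar, and 13.59 and 13.34 at the start. Late hydrolysate was the lowest of the 5 groups for both genes, and for BGL2 the difference was -0.83 (SE 0.135, limma adjusted p = 0.000921). EXG1, the main exoglucanase, was also lower in late hydrolysate, with a difference of -1.51 (limma adjusted p = 0.00086).

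The GAS genes encode enzymes that lengthen glucan chains, GAS1 in growing cells and GAS2 and GAS4 in the spore wall. GAS4 was the only gene of the 39 that was higher in hydrolysate at 9 h. It measured 7.13 and 6.48 in hydrolysate and 5.27 and 5.24 in sugar at 9 h, while the start gave 6.99 and 7.65 and the late arrays 7.61 and 7.03 in hydrolysate and 7.08 and 7.12 in sugar. The early sugar arrays thus stood below the other 8. The feed difference was 1.55 at 9 h (SE 0.288, limma adjusted p = 0.0221) and 0.22 at 18 h, where the feeds overlapped. GAS1 overlapped between feeds at both times, with 0.08 at 9 h (95% confidence interval -0.50 to 0.67) and 0.08 at 18 h (-0.51 to 0.66). GAS2 and GAS3 were lower at 18 h, with differences of -0.81 and -0.82. The GAS3 call was lost without any 1 of 8 arrays, and without sugar 18 h replicate 1 its difference was -0.30 (limma adjusted p = 0.338). The GAS2 call was lost without any 1 of the 4 arrays at 18 h (limma adjusted p up to 0.225). GAS5, SCW10 and EXG2 did not pass at either time.

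CRH1 and UTR2 encode enzymes that join chitin to glucan, and CRR1 their counterpart in the spore wall. The feed differences within this family ran in opposite directions at 18 h. CRH1 measured 8.46 and 8.32 in late hydrolysate and 10.31 and 10.02 in late sugar. At 9 h it read 10.97 and 11.44 in hydrolysate and 12.10 and 11.85 in sugar, and the start gave 10.31 and 11.31. Its difference at 18 h was -1.77 (SE 0.307, limma adjusted p = 0.00129). CRR1 (YLR213C, chromosome XII, 566654 to 567922) measured 5.92 and 6.005 in hydrolysate and 8.94 and 9.26 in sugar at 18 h, and 5.40 and 6.22 in hydrolysate and 7.58 and 7.69 in sugar at 9 h. The start arrays, at 6.02 and 5.49, overlapped with hydrolysate at both times, and only the sugar arrays were higher. The difference of CRR1 was -1.83 at 9 h (SE 0.273, limma adjusted p = 0.0155) and -3.14 at 18 h (SE 0.273, limma adjusted p = 9.63e-05). UTR2 was higher in late hydrolysate by 0.98 (limma adjusted p = 0.0143). Its call was lost without hydrolysate 18 h replicate 1 (0.70, limma adjusted p = 0.102) and without either sugar 18 h array.

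The chitin genes also split. CHS3, the synthase of most wall chitin, measured 10.30 and 9.89 in late hydrolysate and 9.35 and 9.31 in late sugar, after 10.63 and 10.63 in hydrolysate and 10.86 and 10.53 in sugar at 9 h, from 8.41 and 8.58 at the start. It was higher in late hydrolysate by 0.76 (SE 0.174, limma adjusted p = 0.00518), and with spike-in scaling the call was lost (0.55, limma adjusted p = 0.0769). SHC1 (YER096W, chromosome V, 351698 to 353236) encodes the activator of this synthase used in sporulating cells. It measured 9.46 and 9.38 in hydrolysate and 11.99 and 12.14 in sugar at 18 h. At 9 h it read 7.67 and 9.05 in hydrolysate and 10.65 and 10.58 in sugar, with 9.89 and 9.96 at the start. All hydrolysate arrays thus lay below the start and all sugar arrays above it. The feed difference was -2.26 at 9 h (SE 0.357, limma adjusted p = 0.0161) and -2.65 at 18 h (SE 0.357, limma adjusted p = 0.000395).

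CHS2, the synthase of the primary septum, measured 8.86 and 8.86 in late hydrolysate and 10.07 and 9.32 in late sugar, with 9.40 and 9.49, 9.35 and 9.15, and 9.11 and 8.83 in early hydrolysate, early sugar and the start. Its difference at 18 h was -0.84 (SE 0.231, limma adjusted p = 0.0126), which without sugar 18 h replicate 1 was -0.46 (limma adjusted p = 0.0855) and without hydrolysate 18 h replicate 1 also failed the test. CHS1, a repair synthase, was lower, at -0.45 (limma adjusted p = 0.0388). That call was lost without any 1 of 6 arrays, all the arrays at 18 h among them, with a limma adjusted p up to 0.203. The chitin genes are long, with a median of 3144 bp. With the length trend removed, neither CHS1 (-0.04) nor CHS2 (-0.48) passed.

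SLT2 encodes the MAP kinase of the integrity pathway and RLM1 the transcription factor it acts on. SLT2 measured 9.54 and 9.68 in hydrolysate and 10.71 and 10.65 in sugar at 18 h, and 9.73 and 10.04 in hydrolysate and 10.56 and 10.73 in sugar at 9 h, from 9.95 and 9.85 at the start. The hydrolysate arrays overlapped the start at 9 h and lay below it at 18 h, and the sugar arrays lay above it. The feed difference was -0.76 at 9 h (SE 0.147, limma adjusted p = 0.024) and -1.07 at 18 h (SE 0.147, limma adjusted p = 0.000423). With spike-in scaling the call at 9 h was lost (-0.81, limma adjusted p = 0.106). RLM1 measured 9.45 and 9.34 in late hydrolysate and 10.79 and 10.78 in late sugar, with 9.32 and 9.31 in hydrolysate and 9.69 and 9.45 in sugar at 9 h and 8.90 and 9.66 at the start, so that only the late sugar arrays stood above the rest. Its difference was -1.39 at 18 h (SE 0.224, limma adjusted p = 0.000906) and -0.25 at 9 h, where it did not pass.

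YPS1 and YPS3 encode yapsins, proteases at the cell surface that process wall enzymes. YPS1 measured 10.06 and 10.93 in hydrolysate and 11.86 and 11.56 in sugar at 9 h. The start gave 11.57 and 11.48, and the early hydrolysate arrays were the lowest of the 10. The difference at 9 h was -1.22 (SE 0.274, limma adjusted p = 0.035), and at 18 h the feeds overlapped, with 11.11 and 11.52 in hydrolysate and 11.67 and 11.51 in sugar. YPS3 measured 6.07 and 5.93 in late hydrolysate and 4.94 and 4.83 in late sugar, close to background. It read 7.16 and 6.91 in early hydrolysate and 7.07 and 6.83 in early sugar, and 4.61 and 4.81 at the start, not above background. Its difference at 18 h was 1.11 (SE 0.154, limma adjusted p = 0.000445).

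ECM33 and PST1 encode related GPI-anchored proteins, of which PST1 is a marker of an active integrity pathway. ECM33 measured 11.54 and 10.76 in late hydrolysate and 13.38 and 12.96 in late sugar, after 13.44 and 13.45 in hydrolysate and 13.69 and 13.62 in sugar at 9 h, from 11.84 and 11.91 at the start. Its difference at 18 h was -2.02 (SE 0.242, limma adjusted p = 0.000249). PST1 did not pass in any of the 9 comparisons. The hydrolysate replicates of PST1 differed by a log2 unit at 18 h (10.86 and 11.86), and its feed difference there was -0.03 with a 95% confidence interval of -0.83 to 0.76.

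The calls at 9 h depended on single arrays. None of the 6 genes (CWP1, GAS4, CRR1, SHC1, YPS1 and SLT2) kept its call when each of the 10 arrays was left out in turn. Fewer of the wall genes passed without either sugar 9 h array, without hydrolysate 9 h replicate 1, or without either sugar array at 18 h. More passed without hydrolysate 9 h replicate 2. Over all genes the number that passed moved the same way in each of these fits, so these shifts are not particular to the wall genes. YPS1 stood at -0.78 without hydrolysate 9 h replicate 1 (limma adjusted p = 0.139). In a fit of only the 4 arrays at 9 h none passed (limma adjusted p of 0.107 to 0.132 for the 6 genes). At 18 h, 23 of 29 genes kept their calls without each array, and the 6 others were those named above (SED1, GAS2, GAS3, UTR2, CHS1 and CHS2).

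The feed difference itself changed between 9 h and 18 h for 18 of the 39 genes by the interaction term, where 27.4% of all genes passed (13.1% down and 14.3% up). It moved down in 14, among them 6 mannoproteins, and up in 4, which were KRE6, YPS3, FKS1 and CHS3. The largest shifts down were those of PIR1 (-2.35), NCW2 (-2.20) and ECM33 (-1.81), and the largest shift up was that of KRE6 (2.09, limma adjusted p = 0.00237). The difference of CWP1, CRR1, SHC1 and SLT2 was below 0 and passed at both times, and of these the change between times passed for CRR1 only (-1.31, limma adjusted p = 0.0374). These 4 genes are 80% of the 5 lower at 9 h and 17.4% of the 23 lower at 18 h, where over all genes the shares were 78.3% and 9.95%. Without each array in turn, 5 of the 18 kept the call, PIR1, NCW2, ECM33, SCW4 and KRE6. Fewer of the 39 passed without either sugar 9 h array, without any 1 array at 18 h, or without hydrolysate 9 h replicate 2. Over all genes fewer passed in each of these fits too. Scaling by spike-ins left 10, of which 9 were down and 1 up.

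The 9 h and 18 h samples of each feed were compared to follow the genes over time, and these comparisons share no array. In hydrolysate 25 of the 39 genes fell and 4 rose from 9 h to 18 h, where 35.2% of all genes passed, 17.1% falling and 18% rising. In sugar 15 fell and 8 rose, where 58.9% of all genes passed, 27% falling and 31.9% rising. Both feeds shared 14 of the falls, 56% of those in hydrolysate and 93.3% of those in sugar. Over all genes these shares were 66.5% and 42.2%. SCW10, a glucanase-like wall protein, fell by 4.69 in hydrolysate and fell by 4.63 in sugar on the log2 scale (limma adjusted p = 5.72e-05 and 1.84e-05), from 11.79 and 11.94 to 7.33 and 7.02 and from 12.29 and 12.36 to 8.29 and 7.11. GAS1 changed by -2.87 under both feeds, GAS3 by -2.63 and -2.25, and UTR2 by -2.65 and -3.53 (hydrolysate, then sugar).

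Among the mannoproteins the feeds gave different counts over time. In hydrolysate 9 of 11 fell, with a median of -1.19, and in sugar 2 fell, CIS3 and CCW12, 1 rose, NCW2, and the median was -0.17. CIS3 changed by -4.24 in hydrolysate and by -2.75 in sugar. PIR1 fell by 1.94 in hydrolysate, while its change in sugar was 0.41 and did not pass. NCW2 fell by 1.19 in hydrolysate and rose by 1.01 in sugar. For PIR1, NCW2 and CIS3 the test of this difference is the interaction given above, which passed. That of CIS3 was lost when some single arrays were left out. CWP1 fell by 1.83 in hydrolysate with all arrays. Without hydrolysate 9 h replicate 2 its change was -1.20, and the call was lost. It was lost too without hydrolysate 18 h replicate 2. Without each array in turn, 21 of the 29 calls over time in hydrolysate and 20 of the 23 in sugar were kept. Those lost in hydrolysate were of CWP1, TIP1, KRE6, GAS2, CHS1, CHS3, SHC1 and YPS1, and in sugar of CCW12, GSC2 and KNH1.

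The glucan synthesis genes FKS1 and KRE6 fell further in sugar (log2 changes of -3.24 and -2.89) than in hydrolysate (-2.32 and -0.80), and the interaction passed for both. That of FKS1 was lost with spike-in scaling and when some single arrays were left out. The fall of KRE6 in hydrolysate failed the test without hydrolysate 18 h replicate 2 (limma adjusted p = 0.0706). GSC2 rose under both feeds, by 1.12 in hydrolysate and 0.60 in sugar, and the rise in sugar was -0.15 with the length trend removed. GAS2 and SHC1 were the other genes that rose under both, by 1.12 and 1.06 in hydrolysate and by 2.15 and 1.45 in sugar. Their rises in hydrolysate, and that of YPS1 (0.82), were lost with spike-in scaling. Without hydrolysate 9 h replicate 1 the rises of SHC1 and YPS1 there were 0.37 and 0.38 and did not pass. CRR1, GAS4 and RLM1 rose in sugar by 1.46, 1.85 and 1.21 (limma adjusted p = 0.00186, 0.000726 and 0.00176), and their changes in hydrolysate were 0.15, 0.51 and 0.08, none of which passed.

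**Figure D4:**
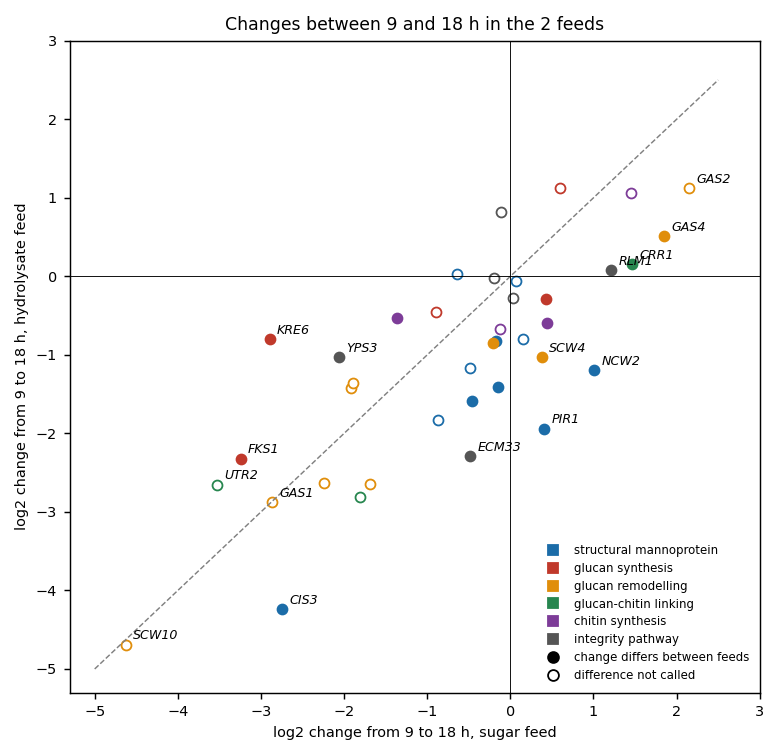
Log2 change from 9 h to 18 h of each of the 39 genes in sugar (horizontal) and in hydrolysate (vertical); filled points are the 18 genes whose change differed between feeds by the interaction term, colours mark roles and the dashed line marks equal change. SCW10 lies near the line at -4.63 and -4.69, while PIR1 and NCW2 lie below it and KRE6 above it.

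Each feed and time was also compared with the start. RMA gives the arrays a like distribution, so these values are relative to the other genes of an array. Scaling by the hybridization spike-ins moved the median of all genes against the start by amounts that brought it from near 0 to 1.30 and 1.07 (hydrolysate, 9 h and 18 h) and to 1.31 and 1.27 (sugar), and 14 falls named in the closing section then turned positive. At 9 h, 16 of the 39 genes were higher and 7 lower than at the start in hydrolysate, where 62.7% of all genes passed (33.6% higher and 29.1% lower). In sugar at 9 h, 20 were higher and 3 lower, where 66.2% did (33.9% higher and 32.2% lower). At 18 h, 6 were higher and 16 lower in hydrolysate, where 55.4% of all genes passed (33.2% higher and 22.2% lower). In sugar at 18 h, 15 were higher and 7 lower, where 66.5% passed (36.8% higher and 29.7% lower).

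The comparisons with the start share the start arrays, so their values stand side by side. FKS1 was higher at 9 h by 2.75 in hydrolysate and by 2.73 in sugar, and at 18 h its values were 0.43, which did not pass, and -0.51, which turned to 0.67 with spike-in scaling. CHS3 was higher in each, by 2.14 and 2.20 at 9 h and by 1.60 and 0.84 at 18 h. CIS3 was higher at 9 h by 3.25 and 3.89, and at 18 h stood at -0.996 in hydrolysate and 1.14 in sugar. Its late value in hydrolysate did not pass with spike-in scaling (-0.03), and that in sugar was 0.67 without sugar 18 h replicate 1. YPS3, not above background at the start, was at least 4.49-fold higher in hydrolysate and at least 4.24-fold higher in sugar at 9 h, and at least 2.19-fold higher in hydrolysate at 18 h. CWP2 was above the start in each comparison, by 1.33 and 0.51 in hydrolysate and by 1.53 and 1.36 in sugar, though at 18 h in hydrolysate it did not pass without hydrolysate 18 h replicate 1 (limma adjusted p = 0.0548). CWP1 and PIR1 were below the start in hydrolysate, at -1.29 and -0.95 at 9 h and -3.12 and -2.89 at 18 h, and passed in neither sugar comparison. Their values at 9 h did not pass without start replicate 2 (-0.80 and -0.46), and with spike-in scaling they were -0.03 and 0.31. That of CWP1 also failed without hydrolysate 9 h replicate 1 (-0.67). CRR1 and SHC1 were above the start in sugar at 18 h by 3.34 and 2.14.

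Several of the genes are neighbours on their chromosomes, in some cases as copies of a common ancestor. HSP150 and CIS3 lie 574 bp apart on chromosome X and face each other, and both were lower in late hydrolysate (-1.39 and -2.14). PIR1 and PIR3 lie 1581 bp apart on chromosome XI and point away from each other, and CWP2 and CWP1 lie 1600 bp apart in the same direction. Their late feed differences were -3.20 and -1.57, and -0.85 and -3.10. YPS1 and YPS3, 523 bp apart on chromosome XII, differed in late hydrolysate, at -0.28 and 1.11. FKS1 and GAS2, 466 bp apart on the same chromosome, stood at 0.94 and -0.81. The positions come from the authors' deposited table, and for all 39 genes they equal those of assembly R64.

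A wider list of 92 other wall genes was counted for the feed comparisons, without repeats under other settings. At 9 h 1 was higher and 8 were lower in hydrolysate, and at 18 h 19 were higher and 48 lower, with a median of -0.41. The genes that passed in either direction are 9.78% and 72.8% of the list, where 9.67% and 61.9% of all genes passed. The total at 9 h is thus at the background. By direction, 3.91% of all genes were lower and 5.77% higher at 9 h, and 30.8% and 31.2% at 18 h. The largest called at 9 h were NCA3 (-1.10), TOS1 (-0.91), SKN1 (-0.87) and DFG5 (-0.82). At 18 h they were SPS22 (-4.00), a gene of spore wall formation, the chitinase gene CTS1 (-2.70), SRL1 (-2.62) and SIM1 (-2.57). SPS22 averaged 5.31 in hydrolysate and 9.31 in sugar. The change between times was largest for SPS22 (-3.48), NCA3 (2.84), and DSE4 and EGT2 (-2.73 and -2.49), which act in the separation of daughter cells.

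All 5 genes of daughter-cell separation and 7 of 8 flocculins and agglutinins, adhesion proteins of the outer wall, were lower in hydrolysate at 18 h, with medians of -2.11 and -1.60, where 30.8% of all genes were lower. Among the sensors and upstream kinases of the integrity pathway 10 of 18 were lower and 2 higher at 18 h, and none passed at 9 h. Those that passed at 18 h in either direction are 66.7% of these genes, near the 61.9% of all genes. By direction, 30.8% of all genes were lower and 31.2% higher, and the median of the 18 genes was -0.44. The synthesis of mannan, the sugar chains of mannoproteins, had 6 of 15 genes higher and 3 lower at 18 h, with a median of 0.19, and its share that passed (60%) is at the background.

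The authors' deposited table of their own comparisons, whose later time is given as 17 h, calls none of the 39 genes at 9 h. At the later time it calls 6, all lower in hydrolysate: CWP1, PIR1, CIS3, NCW2, CRR1 and SHC1. The log2 differences of the authors' deposited table and those given here differ by at most 9.4e-14, so the calls differ through the test and its adjustment. The authors' adjusted p is labelled global, while here each comparison was adjusted on its own.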

How the data were processed

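The deposited log2 values are RMA levels, for which the submitters' processing notes name R 4.2.1, affy 1.74.0 and limma 3.52.4 without order or role. No source used here gives the type of array. The authors' deposited table also gives for each feed comparison an adjusted p-value, a log2 difference, and a score of 1, -1 or 0 for the call. Its 10 per-array columns and 3 emptied lines were not used.

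Of 10928 probe sets, 5811 were of S. cerevisiae. Of these, 108 had no systematic gene name, and the others gave 5654 genes. For 47 genes with several probe sets the brightest was kept. All 10 arrays entered a single limma 3.58.1 fit in R 4.3.3 (lmFit, eBayes, 5 residual and 3.49 prior degrees of freedom) with 9 contrasts. Adjustment (Benjamini-Hochberg) was over all 5654 genes. The fit was tried on simulated data with independent noise and few changed genes, unlike these data. Changes of 1 log2 unit were recovered in 92% (feeds, 9 h), 78% (feeds, 18 h) and 40% (change between times) of changed genes. For 0.5 units these were 12%, 6% and 2%. False calls were 3.8%, 5.41% and 6.45% of all calls. The number of arrays limits the precision.

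The members, roles and wider list were chosen with earlier results of these data known. Values for every array are given for genes called at 9 h or in the difference between times, for the 8 largest late feed differences, and for SLT2 and RLM1. PIR3, SCW10 and PST1, with values for part of the arrays, were added after their values were seen. For the wider list the rule was the 4 largest called in each feed comparison. WSC1 and KRE11 of that list carry the names SLG1 and TRS65 in the files. Whether replicate numbers pair the samples was not settled. Deviations of same-numbered arrays correlated between -0.204 and 0.13 over 10 pairs of groups, and 1 pair exceeded 0.1. Each group gives only 1 replicate difference, so these values cannot show whether a culture was sampled at several times. No sequences are shown, since no sequence file was used here. Alternatives were another prior, a filter on dim genes, a fit of only the groups compared, a replicate block, repeated quantile normalization, a shift of each array by its bacterial hybridization spike-ins, the mean of probe sets, each array left out, and removal of the trend with gene length.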

Additional observations from a re-analysis of the deposited data

Results flagged for a closer look

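For 18 of the 39 genes the difference between feeds changed from 9 h to 18 h, by the test of that change itself (limma, adjusted p under 0.05). PIR1 moved by -2.35 and NCW2 by -2.20 on the log2 scale. Further shifts down were those of ECM33 (-1.81), CIS3 (-1.49), SCW4 (-1.41), GAS4 (-1.33), CRR1 (-1.31), HSP150 (-1.26), RLM1 (-1.14), CCW14 (-1.13), CHS2 (-1.03), KNH1 (-0.72), CWP2 (-0.66) and BGL2 (-0.65). CHS3 moved up by 0.83, FKS1 by 0.92, YPS3 by 1.03 and KRE6 by 2.09. GAS4 started from a higher level in hydrolysate at 9 h, while KNH1 passed in neither feed comparison. The limma adjusted p lay between 0.00237 (KRE6) and 0.0486 (KNH1). CHS2 stood at -0.65 without sugar 18 h replicate 1 (limma adjusted p = 0.12).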

How the results depend on the processing

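Of 6279 repeats of single-gene results under alternatives, 5759 kept direction and side of the threshold, 339 lost the call, 166 gained one and 15 reversed. The reversals were 14 under spike-in scaling against the start and 1 under removal of the length trend (GSC2 in sugar from 9 h to 18 h, -0.15). Spike-in values were PIR1 0.31, TIP1 0.59, NCW2 0.024, CHS1 0.59 and YPS1 0.24 (hydrolysate 9 h), CCW14 0.26, BGL2 0.51, SCW4 0.029 and ECM33 0.25 (hydrolysate 18 h), NCW2 0.15 and CHS1 0.55 (sugar 9 h), and FKS1 0.67, KRE9 0.45 and CHS1 0.28 (sugar 18 h). Spike-in scaling raised the calls against the start to 33 (33 higher), 25 (19 higher), 37 (36 higher) and 32 (31 higher) in the same order as groups in this list, and left 10 in the change of the feed difference (1 higher, 9 lower). It took the median of all genes to -0.21 in the feed comparison at 18 h. Removal of the length trend gave 1 call higher and 6 lower between feeds at 9 h (over all genes 372 and 342). It gave 5 up and 13 down in the change between times (855 and 588). Against the start, 15 were higher and 6 lower in hydrolysate at 9 h (1745 and 1821). The counts were 6 and 19 in hydrolysate at 18 h (1575 and 1537), and 13 and 10 in sugar at 18 h (1720 and 1780). From 9 h to 18 h in sugar 7 rose and 15 fell (1622 and 1634). A fit of only the arrays compared left 0 calls at 9 h, where 23 of all genes passed in place of 547. With each array left out in turn, counts ranged from 0 to 10 and from 24 to 29 between feeds at 9 h and 18 h, and from 6 to 21 for the change between times. Against the start they were 20 to 24, 20 to 25, 22 to 26 and 17 to 22, and from 9 h to 18 h 21 to 28 in hydrolysate and 20 to 24 in sugar. Over all genes they were 30 to 1550 at 9 h and 654 to 1889 for the change between times. The replicate number as a block gave 6 and 29 calls between feeds, 14 for the change between times, 23, 23, 23 and 21 against the start, and 27 and 21 over time. It lost 11 single-gene calls and gained 3, and over all genes left 337 calls at 9 h. With 2 arrays in a group the error is wide where replicates lie far apart, as for the feed differences of PIR3.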

Other observations

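The outer adhesion proteins and the separation genes of the wider list also differed in their course over time. From 9 h to 18 h in sugar, 7 of 8 flocculins and agglutinins rose, with a median of 1.44, and in hydrolysate none passed in either direction (median 0.09). The change of the feed difference passed for 6 of the 8, all down, where 13.1% of all genes passed downward. FLO9 of this list shares its probe set with a near-identical copy. Of 5 daughter-cell separation genes, 4 rose in sugar (median 1.46), 3 fell in hydrolysate (median -0.998), and the change of the feed difference passed for all 5, again down. The mannan synthesis genes fell with time under both feeds, 7 of 15 in hydrolysate and 8 of 15 in sugar, with medians of -0.41 and -0.49, and 1 rose in sugar. Over all genes 31.9% rose and 27% fell in sugar, and 18% rose and 17.1% fell in hydrolysate.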
